A study of Mus musculus with 18 samples.

Results

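Splenic neutrophils of female NZBWF1/J mice were compared for 10 genes of glucose uptake and glycolysis. The genes were chosen by symbol: the glucose transporter Slc2a3, the hexokinases Hk2 and Hk3, and Gpi1, Pfkl, Aldoa, Gapdh, Pgk1, Pkm and Ldha, which run from glucose-6-phosphate isomerase to lactate dehydrogenase. All 10 were found among the 17941 gene symbols measured, and all 10 were among the 10104 that had enough counts to be tested. NZBWF1/J is a hybrid mouse strain whose females develop a lupus-like disease with age. Untreated females were sampled at 3 ages, 14, 20 and 26 weeks, taken by the submitters as stages of disease, with 6 biological replicates and 1 RNA sequencing library per replicate. All 18 libraries come from that 1 strain and sex, so age was not separated from disease. The series as used here has no mice of a strain without the disease. The cells were taken from the spleen and sorted as live single cells that carried Ly6B, CD11b and Ly6G, with intermediate Ly6C. The labels do not say whether a replicate is 1 mouse or a pool, and p-values therefore measure the spread between these libraries.

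Neutrophils are known for making most of their ATP by glycolysis, and they hold few mitochondria. Glucose enters through facilitative transporters, of which Slc2a3 encodes GLUT3, and is phosphorylated by hexokinase. Isomerase, phosphofructokinase and aldolase carry the sugar to the triose stage, glyceraldehyde-3-phosphate dehydrogenase and phosphoglycerate kinase make the first ATP, and pyruvate kinase makes the second. Lactate dehydrogenase turns pyruvate into lactate and restores the NAD+ that Gapdh needs. The transcription factor HIF-1 is a textbook activator of many of these genes.

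Gapdh, Pgk1 and Gpi1 were called lower at 20 than at 14 weeks, and the hexokinase genes Hk2 and Hk3 differed in course with age. Promoter sequences are shown for these 5 genes. Each is the stretch just before the start of the RefSeq transcript on GRCm38.p6, written 5′ to 3′ on the strand of the gene. Capitals mark the HIF core ACGTG or GCGTG on either strand.
Gapdh (chr6:125165774-125166023, minus strand): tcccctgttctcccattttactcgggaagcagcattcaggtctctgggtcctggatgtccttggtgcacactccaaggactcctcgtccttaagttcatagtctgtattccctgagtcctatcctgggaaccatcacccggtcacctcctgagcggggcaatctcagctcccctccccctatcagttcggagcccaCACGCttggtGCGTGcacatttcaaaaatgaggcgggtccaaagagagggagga
Pgk1 (chrX:106186850-106187099, plus strand): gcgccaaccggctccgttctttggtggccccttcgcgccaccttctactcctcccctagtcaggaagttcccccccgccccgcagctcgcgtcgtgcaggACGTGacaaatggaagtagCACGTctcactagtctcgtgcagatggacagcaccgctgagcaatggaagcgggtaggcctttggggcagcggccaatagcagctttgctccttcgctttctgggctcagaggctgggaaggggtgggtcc
Gpi1 (chr7:34230337-34230586, minus strand): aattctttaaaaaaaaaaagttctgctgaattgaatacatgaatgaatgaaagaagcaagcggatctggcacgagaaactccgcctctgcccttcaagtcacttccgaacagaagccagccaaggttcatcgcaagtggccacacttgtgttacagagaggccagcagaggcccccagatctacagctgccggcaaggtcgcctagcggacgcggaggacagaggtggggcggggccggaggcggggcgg
Hk2 (chr6:82774455-82774704, minus strand): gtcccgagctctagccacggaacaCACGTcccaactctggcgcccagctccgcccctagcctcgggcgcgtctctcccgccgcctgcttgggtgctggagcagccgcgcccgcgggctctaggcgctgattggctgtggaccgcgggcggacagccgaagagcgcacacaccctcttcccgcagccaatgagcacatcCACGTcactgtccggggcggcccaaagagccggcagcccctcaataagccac
Hk3 (chr13:55021386-55021635, minus strand): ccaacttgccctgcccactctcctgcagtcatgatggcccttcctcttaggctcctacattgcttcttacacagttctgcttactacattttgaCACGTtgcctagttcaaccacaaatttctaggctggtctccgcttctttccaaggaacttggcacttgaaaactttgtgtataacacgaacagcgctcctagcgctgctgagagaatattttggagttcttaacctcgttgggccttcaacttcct

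RefSeq promoter windows were matched for 9 of the 10 genes, 13 windows in all, some of them overlapping, and Slc2a3 was not matched. A HIF core, ACGTG or GCGTG on either strand, was present in 10 of these 13 windows and in 43.8% of the 32851 windows of all genes, counted over the window that also takes in the first transcribed bases. ACGTG alone was present in 8 of the 13 windows, for 7 genes, and in 19.6% of all windows. The shown stretch of Gapdh holds 2 cores, that of Pgk1 2, that of Hk2 2 and that of Hk3 1, and that of Gpi1 has 0. The E-box CACGTG, which contains ACGTG, was found for Ldha alone among the 9 genes, and in 7.15% of all windows. The GC box GGGCGG was present in 8 of the 13 windows, for 7 genes, and in 35.7% of all windows. TATAAA was in 0 of the 13 windows against 13.6% of all windows, and the PU.1 core GAGGAA was in 2, those of Aldoa and Hk3, against 28.3%. These letter matches describe the windows only, since no binding was measured.

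The libraries held 5546624 to 17256379 gene counts. Between 19.1 and 26.6% of a library at 14 weeks was made up by its 10 leading genes, 9.76 to 17.7% at 20 weeks and 21.2 to 34.8% at 26 weeks. All 10 neutrophil markers examined, S100a8, S100a9 and Ly6g among them, had counts at every age. Their summed level ran from 96700 to 127000 CPM (counts scaled to a library of fixed size with TMM factors) at 14 weeks, from 30600 to 73300 at 20 weeks and from 81300 to 173000 at 26 weeks. Of these 10 markers, 1 was called higher and 8 lower at 20 than at 14 weeks. At 26 weeks 3 were higher and 4 lower than at 14 weeks, and 5 higher and 1 lower than at 20 weeks. Of all genes 4.93, 5.45 and 8.03% were called higher in these pairs, and 5.27, 5.54 and 7.98% lower. By their medians, the summed markers of B cells, plasma cells and dendritic cells were highest at 20 weeks. Those of monocytes and macrophages, T cells and erythroid cells were highest at 26 weeks. The summed B cell markers were at 47.4 to 181 CPM at 14 weeks, 185 to 1850 at 20 weeks and 68.8 to 268 at 26 weeks, and the plasma cell markers at 129 to 186, 349 to 2080 and 184 to 689. Monocyte and macrophage markers summed to 766 to 1000, 805 to 1290 and 757 to 1580 CPM, with C1qa and C1qb at 0 at 14 and 26 weeks. Dendritic cell markers reached 17.6 CPM at 14 weeks, 80.2 at 20 weeks and 24.7 at 26 weeks, T cell markers 151, 102 and 382, and erythroid markers 2.42, 6.82 and 263. Immediate early genes, which can rise when tissue is handled, summed to 1470 to 3990, 5090 to 13700 and 1850 to 6750 CPM. Of the 10 tested, 8 were called higher at 20 than at 14 weeks, beside 4.93% of all genes. In bulk libraries a smaller share of neutrophils and less of an RNA per neutrophil cannot be told apart, and the part of these markers in the results below was not tested.

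The glycolysis genes followed different courses with age. At 20 weeks Gpi1, Gapdh and Pgk1 were lower than at 14 weeks. From 20 to 26 weeks these 3 rose, as did Aldoa, Ldha and Hk2, and Gapdh and Pgk1 were not called different between 14 and 26 weeks. Slc2a3 went the other way, being close at 14 and 20 weeks and lower by more than 1 log2 unit at 26 weeks, and Pkm was lower at 26 than at 14 weeks. A test of any change across the 3 ages called 9 of the 10 genes (all but Pfkl), against 23% of all genes tested. The 10 genes were chosen with earlier results of these data known. The shares set beside their counts, here and below, therefore describe them and do not test them as a set. These shares are over all genes tested and were not matched for level, while most of the 10 ranked near the top by level.

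Between 14 and 20 weeks 3 of the 10 genes fell and 0 rose (edgeR's quasi-likelihood test, Benjamini-Hochberg adjusted p under 0.05 over all genes), where 5.27% of all genes were called lower and 4.93% higher. The fitted log2 fold change was below 0 for 9 of the 10, with a median of -0.38, beside -0.02 over all genes tested. In 5 of the 10 every 20-week library lay below every 14-week library, which held for 3.93% of all genes, and in 0 did every 20-week library lie above, as 2.97% of all genes did. Between 14 and 26 weeks 3 of the 10 fell and 0 rose, beside 5.54% called lower and 5.45% called higher, with a median of 0.09 over the 10 and 0.04 over all genes. All libraries of 26 weeks lay below all of 14 weeks in 4 of the 10 and above in 0, and did so in 3.86 and 2.9% of all genes. From 20 to 26 weeks 6 rose and 1 fell, beside 8.03% called higher and 7.98% called lower, with a median of 0.47 over the 10 and 0.05 over all genes. Here the groups lay apart in 4 of the 10 upwards and in 1 downwards, and in 3.69 and 2.27% of all genes. The 20-week libraries serve both the first and the last of these comparisons, so the fall and the rise are not independent of each other.

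**Figure D1:**
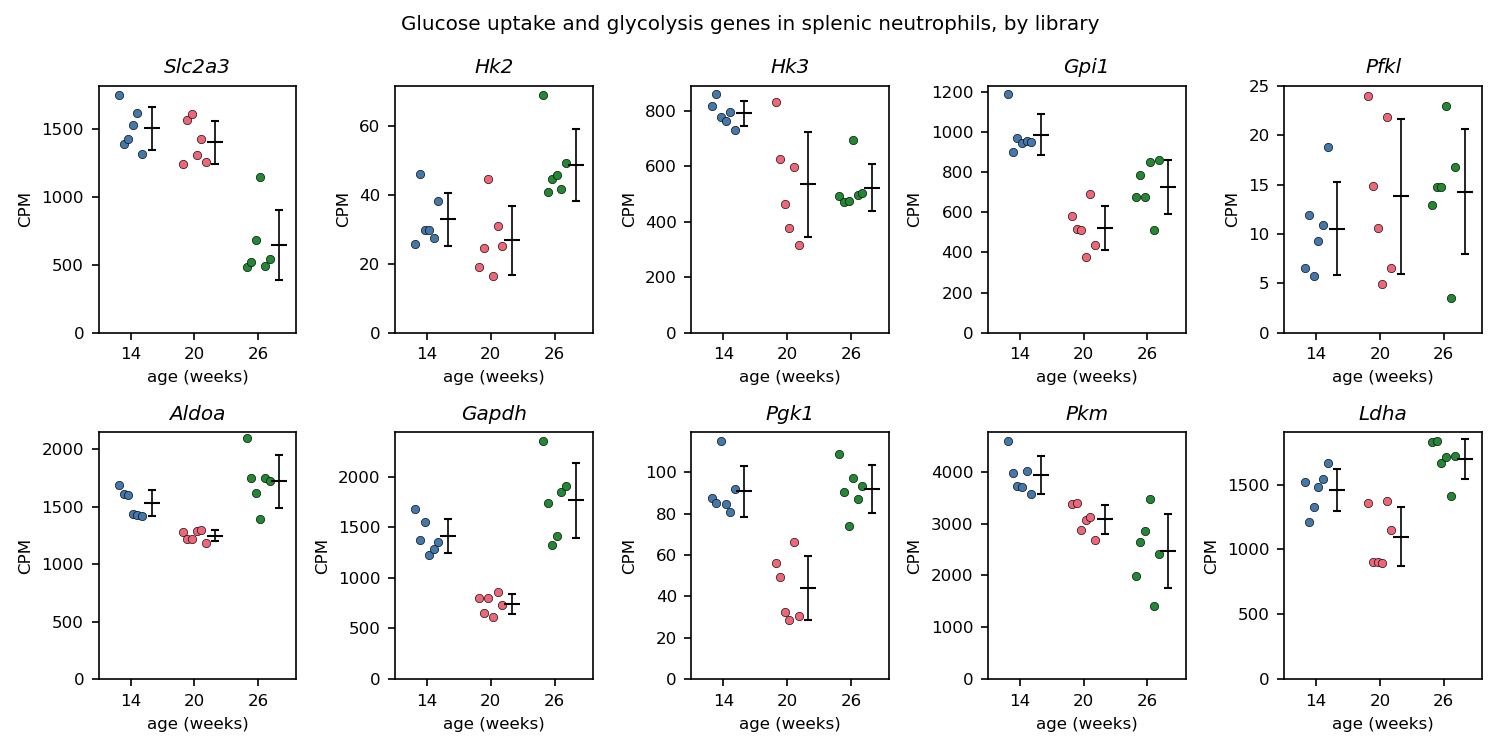
Level in CPM (vertical axes, linear from 0) of each of the 10 genes against age in weeks; each point is 1 library, 6 per age, and the bar beside them is the mean ± SD. Gapdh and Pgk1 are lowest in all 6 libraries of 20 weeks, and Slc2a3 is lowest in the 6 libraries of 26 weeks.

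Uptake came first in the comparison, with Slc2a3 (chr6:122727809-122801640, minus strand, GRCm38), the gene of the high-affinity transporter GLUT3. It was at 1320 to 1750 CPM at 14 weeks with a median of 1480, at 1240 to 1610 with a median of 1370 at 20 weeks, and at 481 to 1150 with a median of 528 at 26 weeks. Every 26-week library lay below every younger library, while the 14-week and 20-week libraries overlapped. The log2 fold change was -1.23 ± 0.18 (SE) for 26 against 14 weeks (edgeR, adjusted p = 0.00105) and -1.12 ± 0.18 for 26 against 20 weeks (adjusted p = 0.000553). For 20 against 14 weeks it was -0.10 ± 0.18 (adjusted p = 0.803). Replicate 4 at 26 weeks held the level of 1150 CPM, and the next highest of its group was at 683 CPM. Without that library the change from 14 to 26 weeks was -1.48.

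Other hexose transporters moved on a different schedule. Slc2a1, the gene of the widespread transporter GLUT1, was at 56.9 ± 34.1 CPM (SD, n = 6) at 14 weeks, 144 ± 41.6 at 20 weeks and 59.7 ± 21.5 at 26 weeks. It rose by a log2 fold change of 1.34 ± 0.36 from 14 to 20 weeks (edgeR, adjusted p = 0.0197) and fell by 1.27 ± 0.36 from 20 to 26 weeks (adjusted p = 0.0184). Slc2a6, which encodes the lysosomal transporter GLUT6, had a like course, with 123 ± 57.4, 256 ± 53.4 and 98.1 ± 34.1 CPM. Its log2 fold changes were 1.06 ± 0.28 (adjusted p = 0.0214) and -1.38 ± 0.29 (adjusted p = 0.00272). At 20 weeks, then, the mean levels of these 2 transporters were at their highest while Slc2a3 was near its 14-week level. For both, the 14-week and 20-week libraries overlapped. Slc2a1 reached 116 CPM at 14 weeks and was as low as 83 at 20 weeks, and Slc2a6 reached 197 and was as low as 165. Slc16a3 encodes the monocarboxylate transporter MCT4, which exports lactate. It was at 551 ± 135, 752 ± 186 and 397 ± 90.3 CPM and fell by 0.92 ± 0.20 on the log2 scale from 20 to 26 weeks (adjusted p = 0.00353). Its partner on the membrane, Bsg (basigin), rose by 0.69 ± 0.17 from 14 to 26 weeks (adjusted p = 0.0127).

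**Figure D2:**
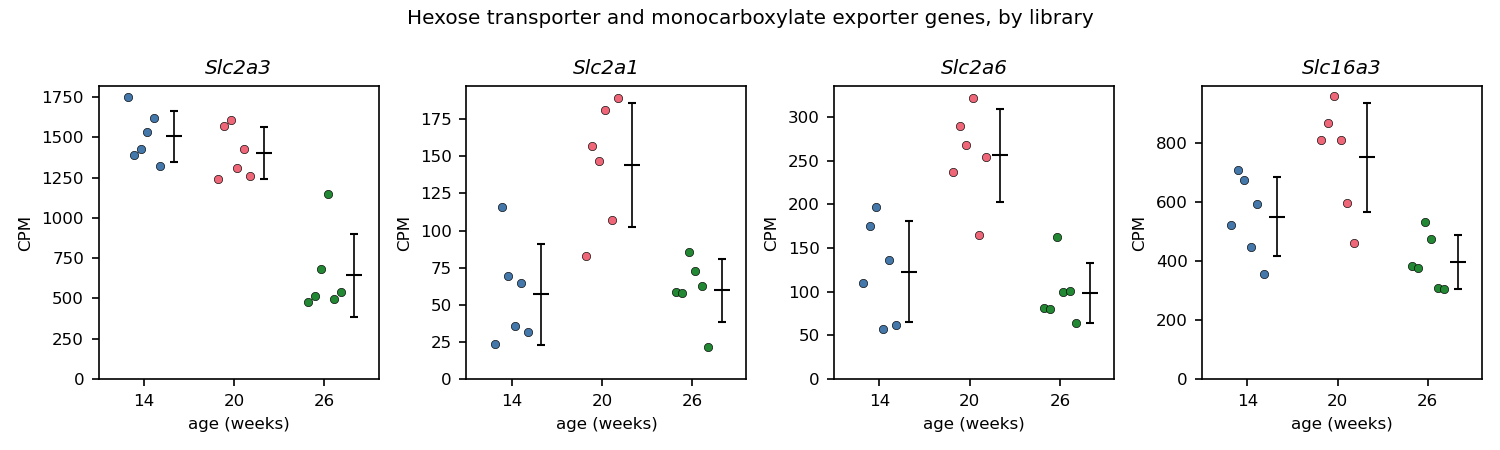
Level in CPM (linear from 0) of Slc2a3, Slc2a1, Slc2a6 and Slc16a3 against age in weeks, 1 point per library with the mean ± SD beside each age. Slc2a3 is lowest at 26 weeks, whereas the mean levels of Slc2a1, Slc2a6 and Slc16a3 are highest at 20 weeks.

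The ratio of 2 genes within a library does not depend on how libraries are scaled, and 4 such ratios were compared over the 3 pairs of ages, 12 tests in all. The count of Slc2a3 over that of Slc2a1 was 12 to 73.6 with a median of 33.2 at 14 weeks, 6.63 to 14.9 with a median of 10.5 at 20 weeks, and 7.88 to 25.2 with a median of 8.6 at 26 weeks. The mean log2 ratio differed by -1.6 between 20 and 14 weeks (exact permutation test, two-sided, p = 0.00649, adjusted over the 12 tests 0.039), and the groups overlapped. For 26 against 14 weeks the difference was -1.46 (exact permutation test, adjusted p = 0.0606). Leaving out 1 library at a time kept the first of these below 0.05 in 5 of 12 cases, with adjusted p from 0.013 to 0.0606.

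Hexokinase traps glucose in the cell, and its isozyme genes changed in different ways. Hk3 (chr13:55005985-55021385, minus strand), the isozyme typical of myeloid cells, was at 730 to 861 CPM at 14 weeks with a median of 785, at 314 to 829 with a median of 530 at 20 weeks, and at 472 to 693 with a median of 494 at 26 weeks. The 26-week libraries all lay below the 14-week libraries, and those of 20 weeks were spread over both ranges. The log2 fold change for 26 against 14 weeks was -0.60 ± 0.18 (edgeR, adjusted p = 0.0389). This call was near the threshold: it was lost on leaving out any 1 of 11 of the 18 libraries, each of the 6 at 14 weeks and all but replicate 4 at 26 weeks, with adjusted p up to 0.116. It was also lost with RLE factors (adjusted p = 0.05), with upper quartile factors (0.0626), without a filter on low counts (0.0811), with the stricter filter (0.0554) and without the 2 libraries in doubt, 20-week replicate 3 and 26-week replicate 5 (0.0828). For 20 against 14 weeks the change was -0.56 ± 0.18 (adjusted p = 0.054), and for 26 against 20 weeks -0.03 ± 0.18 (adjusted p = 0.93).

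Hk2 (chr6:82725025-82774454, minus strand), the inducible isozyme that binds mitochondria, was the scarcer of the pair. It was at 25.8 to 46 CPM with a median of 29.8 at 14 weeks, 16.6 to 44.6 with a median of 24.9 at 20 weeks, and 41 to 69.1 with a median of 45.3 at 26 weeks. The oldest libraries were the highest, although their range met that of both younger groups. Hk2 rose by 0.86 ± 0.24 on the log2 scale from 20 to 26 weeks (edgeR, adjusted p = 0.0184). Against 14 weeks the log2 fold change at 26 weeks was 0.56 ± 0.24 (adjusted p = 0.148). The rise from 20 weeks was not called when libraries were scaled by their totals alone (0.63, adjusted p = 0.0783).

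Within a library the balance of the 2 isozymes had shifted by 26 weeks. The count of Hk2 over that of Hk3 was 0.0317 to 0.0535 with a median of 0.0387 at 14 weeks, 0.023 to 0.0966 with a median of 0.0478 at 20 weeks, and 0.0661 to 0.141 with a median of 0.0907 at 26 weeks. The 26-week and 14-week libraries did not overlap. The mean log2 ratio was higher by 1.18 at 26 than at 14 weeks (exact permutation test, two-sided, p = 0.00216, the smallest that 6 against 6 libraries allow, adjusted over the 12 tests 0.026). Hk1, the third isozyme tested, was at 167 ± 26.6, 84 ± 42.9 and 78.8 ± 42.2 CPM, and its log2 fold change of -1.08 ± 0.37 for 26 against 14 weeks missed the threshold (edgeR, adjusted p = 0.0656). Adpgk, an ADP-dependent glucokinase, fell by 1.25 ± 0.29 from 14 to 20 weeks (edgeR, adjusted p = 0.00807).

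**Figure D3:**
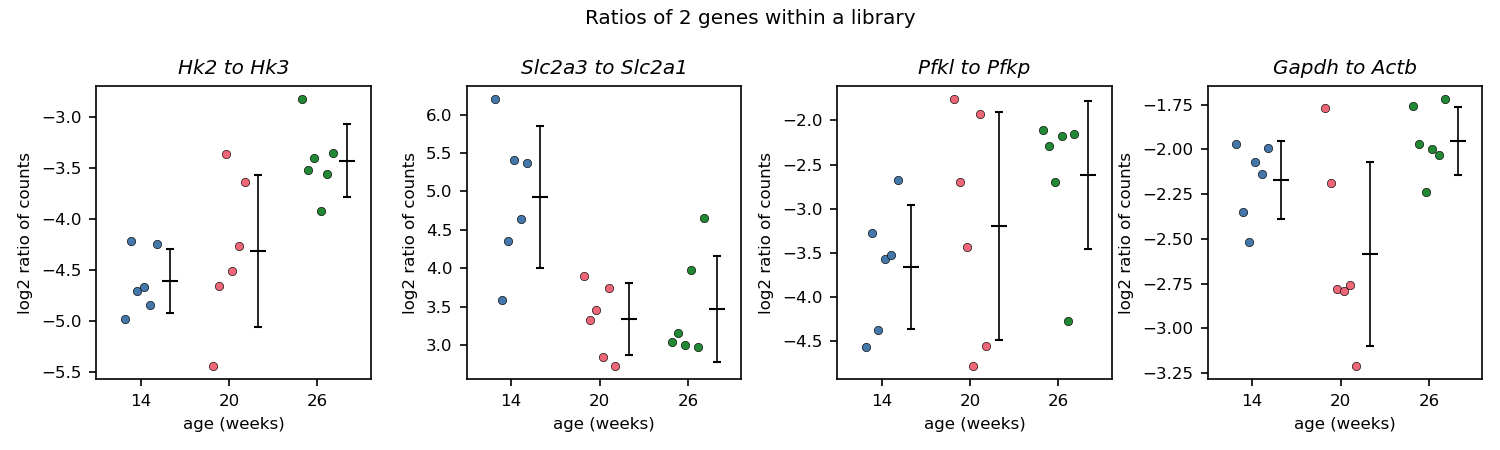
Log2 ratio of the counts of 2 genes in the same library (vertical axes, not starting at 0) against age in weeks for Hk2 to Hk3, Slc2a3 to Slc2a1, Pfkl to Pfkp and Gapdh to Actb, 1 point per library with the mean ± SD beside each age. The Hk2 to Hk3 ratio of all 6 libraries of 26 weeks lies above that of all 6 libraries of 14 weeks.

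Gpi1 (chr7:34201330-34230336, minus strand) encodes glucose-6-phosphate isomerase, which turns the phosphorylated sugar into its fructose form. It was at 901 to 1190 CPM with a median of 953 at 14 weeks, 379 to 694 with a median of 515 at 20 weeks, and 511 to 861 with a median of 730 at 26 weeks. All libraries of both older groups lay below those of 14 weeks. Gpi1 fell by 0.92 ± 0.15 on the log2 scale from 14 to 20 weeks (edgeR, adjusted p = 0.000893). It rose by 0.48 ± 0.15 from 20 to 26 weeks (adjusted p = 0.032), with overlapping groups, and this call was lost on leaving out 20-week replicate 2, 4 or 6 or 26-week replicate 2, 4 or 6 (adjusted p up to 0.0774). It was also lost with library totals alone (0.28, adjusted p = 0.248) and in a fit of the 2 ages alone (adjusted p = 0.0898). For 26 against 14 weeks the log2 fold change was -0.44 ± 0.15 (adjusted p = 0.0626). In the annotation 11.5% of its exon bases are shared with the noncoding gene Gm26762, and how the authors counted reads there is not known from the labels.

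Phosphofructokinase is the committed step. Pfkl (chr10:77986947-78010083, minus strand), the liver-type subunit, was the scarcest of the 10 genes, with 17 to 292 counts per library. It was at 5.7 to 18.8 CPM with a median of 10.1 at 14 weeks, 4.94 to 24 with a median of 12.8 at 20 weeks, and 3.56 to 23 with a median of 14.8 at 26 weeks. The 3 groups overlapped throughout, and no difference with age was detectable at this depth (edgeR, any change, adjusted p = 0.736). Pfkp, the platelet-type subunit, was at 124 ± 16.9, 112 ± 29.9 and 79.2 ± 18 CPM and fell by 0.65 ± 0.18 from 14 to 26 weeks (adjusted p = 0.0274). The log2 ratio of Pfkl to Pfkp was 1.04 higher at 26 than at 14 weeks, a difference that did not pass (exact permutation test, adjusted p = 0.0996).

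Aldoa (chr7:126795234-126800751, minus strand) encodes aldolase A, which splits the hexose. Its level was 1420 to 1690 CPM with a median of 1520 at 14 weeks, 1180 to 1300 with a median of 1250 at 20 weeks, and 1390 to 2100 with a median of 1730 at 26 weeks. The 20-week libraries lay below those of both other ages without overlap, and the 14-week and 26-week libraries overlapped. The rise from 20 to 26 weeks was 0.46 ± 0.10 on the log2 scale (edgeR, adjusted p = 0.00398). It was 0.24 with library totals alone (adjusted p = 0.0758). For 20 against 14 weeks the log2 fold change was -0.30 ± 0.10 (adjusted p = 0.0722). Tpi1, the triose phosphate isomerase of the following step, was at 96.8 ± 14.8, 72.9 ± 17.9 and 152 ± 33.6 CPM. It rose by 0.65 ± 0.19 from 14 to 26 weeks (adjusted p = 0.0293) and by 1.06 ± 0.19 from 20 to 26 weeks (adjusted p = 0.000979).

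Gapdh (chr6:125161715-125166467, minus strand) had the largest rise of the 10 genes between 20 and 26 weeks. Its enzyme oxidises glyceraldehyde 3-phosphate and makes NADH. The level was 1230 to 1680 CPM with a median of 1360 at 14 weeks, 613 to 864 with a median of 762 at 20 weeks, and 1330 to 2350 with a median of 1800 at 26 weeks. All 20-week libraries were below all others, and the outer ages overlapped. The log2 fold change was -0.93 ± 0.14 for 20 against 14 weeks (edgeR, adjusted p = 0.000486) and 1.25 ± 0.14 for 26 against 20 weeks (adjusted p = 5.53e-05). For 26 against 14 weeks it was 0.33 ± 0.14 (adjusted p = 0.148). Gapdh and Actb are both commonly used as reference genes for scaling, and the count of Gapdh over that of Actb had a median of 0.233 at 14 weeks, 0.146 at 20 weeks and 0.252 at 26 weeks. That ratio ran from 0.175 to 0.255, from 0.108 to 0.294 and from 0.212 to 0.304 at the 3 ages, and the groups overlapped. The differences of the log2 ratio did not pass (exact permutation test, adjusted p = 0.149 for 20 against 14 weeks and 0.0675 for 26 against 20 weeks). Actb itself was at 6430 ± 1400, 4670 ± 1630 and 6770 ± 868 CPM (SD, n = 6). The ratio therefore does not separate a change in Gapdh from a change in Actb.

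Pgk1 (chrX:106187100-106203699, plus strand) encodes phosphoglycerate kinase, the first step to yield ATP. It was at 81 to 115 CPM with a median of 86.5 at 14 weeks, 28.7 to 66.1 with a median of 41 at 20 weeks, and 74.2 to 109 with a median of 92 at 26 weeks. The 20-week libraries again lay below all the others. It fell by 1.05 ± 0.20 on the log2 scale from 14 to 20 weeks (edgeR, adjusted p = 0.00237) and rose by 1.07 ± 0.20 from 20 to 26 weeks (adjusted p = 0.00132), and for 26 against 14 weeks the log2 fold change was 0.01 ± 0.20 (adjusted p = 0.98). Pgam1, the mutase of the next step, had the same pattern. It was at 109 ± 11.3, 61.5 ± 11.3 and 120 ± 18 CPM, fell by 0.83 ± 0.15 (adjusted p = 0.00175) and rose by 0.96 ± 0.15 (adjusted p = 0.000423). Eno1, the enolase gene, was at 929 ± 109, 665 ± 94.5 and 789 ± 75.1 CPM and fell by 0.48 ± 0.12 from 14 to 20 weeks (adjusted p = 0.0113). Its reads can be split with the near-identical copy Eno1b, so its value is uncertain.

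Pkm (chr9:59656368-59679375, plus strand), which encodes pyruvate kinase M, had the highest counts of the 10 genes in most libraries. It was at 3570 to 4600 CPM with a median of 3850 at 14 weeks, 2690 to 3400 with a median of 3090 at 20 weeks, and 1420 to 3470 with a median of 2540 at 26 weeks. Both older groups lay entirely below the 14-week libraries, and they overlapped each other. Pkm fell by 0.67 ± 0.16 from 14 to 26 weeks (edgeR, adjusted p = 0.0101). The log2 fold changes of -0.35 ± 0.16 for 20 against 14 weeks (adjusted p = 0.19) and -0.32 ± 0.16 for 26 against 20 weeks (adjusted p = 0.179) did not pass. The latter was called with the correction for gene length (-0.65, adjusted p = 0.0182), with that for GC content (-0.64, adjusted p = 0.0294) and without replicate 4 of 26 weeks (-0.45, adjusted p = 0.0404). The counts are per gene symbol, so the M1 and M2 splice forms of Pkm were not separated, and 15.3% of its exon bases are shared with the annotated gene Gm49759.

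Ldha (chr7:46841475-46855627, plus strand), the lactate dehydrogenase subunit that favours lactate production, was at 1210 to 1670 CPM with a median of 1500 at 14 weeks, 898 to 1370 with a median of 1030 at 20 weeks, and 1410 to 1840 with a median of 1720 at 26 weeks. All 26-week libraries lay above all 20-week libraries. It rose by 0.63 ± 0.13 on the log2 scale from 20 to 26 weeks (edgeR, adjusted p = 0.00283). The log2 fold change for 20 against 14 weeks was -0.41 ± 0.13 (adjusted p = 0.0528). Ldhb, the other main subunit, had a mean of 2.92, 2.53 and 2.55 CPM at the 3 ages. Ldhc, the testis-type subunit, was at 3.45 ± 2.29, 1.63 ± 1.4 and 11.4 ± 10.5 CPM and was called higher at 26 than at 20 weeks (log2 fold change 2.80 ± 0.83, adjusted p = 0.025) from these low counts. Copies named after Gapdh, Pgk1 and Ldha had few counts of their own over the 18 libraries. These were 17 for Gapdh-ps14, 10 for Pgk1-rs7 and 39 for Ldha-ps and Ldha-ps2 together. Copies under other names were not searched for, and how reads with several matches were counted is not known.

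**Figure D4:**
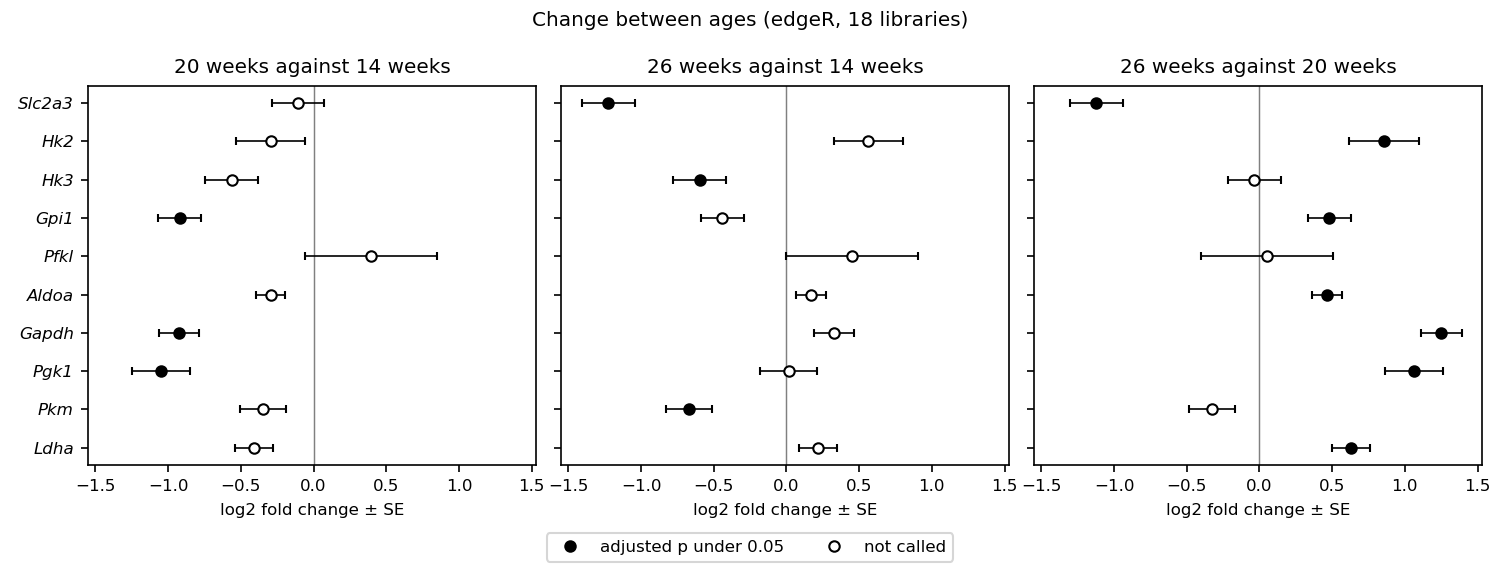
Log2 fold change ± SE (horizontal axes) of the 10 genes for 20 against 14 weeks, 26 against 14 weeks and 26 against 20 weeks, from 1 edgeR fit of 18 libraries; filled points have an adjusted p under 0.05. Filled points lie to the left in the first 2 panels, 3 in each, and in the last panel 6 lie to the right and Slc2a3 to the left.

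Part of these calls changed with the scaling. Correcting each library for the length or for the GC content of its genes moved the median of all genes to 0.23 (both corrections) for 20 against 14 weeks and to -0.32 for 26 against 20 weeks. With either correction the falls of Gpi1 and Gapdh at 20 weeks were not called (adjusted p from 0.0592 to 0.0963), nor were the rises of Aldoa, Ldha, Hk2 and Gpi1 at 26 weeks, while Pkm was called lower at 26 than at 20 weeks. The calls for Pgk1 and Slc2a3, that for Pkm at 26 against 14 weeks and the rise of Gapdh at 26 weeks held under both. Both corrections also shifted whole libraries. The part of that shift and the part of length or GC content in the changed calls were not tested.

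The share of a library that the 10 genes made up was 1.14 ± 0.05% (SD, n = 6) in 14-week, 0.947 ± 0.06% in 20-week and 0.914 ± 0.14% in 26-week libraries, and their summed level was 11700 ± 817, 8720 ± 752 and 9700 ± 918 CPM. From 20 to 26 weeks the mean share fell while the mean CPM rose. The share uses raw library totals and the CPM use TMM factors, so that direction depends on the scaling. The make-up of the summed counts differed more at 26 weeks than between the younger ages. Slc2a3 made up 12.8 ± 0.81% of the counts of the 10 genes at 14 weeks, 16.2 ± 2.07% at 20 weeks and 6.57 ± 2.16% at 26 weeks. Pkm made up a mean of 33.4, 35.5 and 25.2%, and Gapdh 12, 8.52 and 18.4%. The 26-week libraries were unlike each other: Gapdh ran from 13% in replicate 4 to 23.3% in replicate 1, and Pkm from 17.6% in replicate 5 to 32% in replicate 4. In replicate 4 Slc2a3 (10.6%), Pkm and Gapdh were each the closest of the 26-week libraries to the 14-week means.

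**Figure D5:**
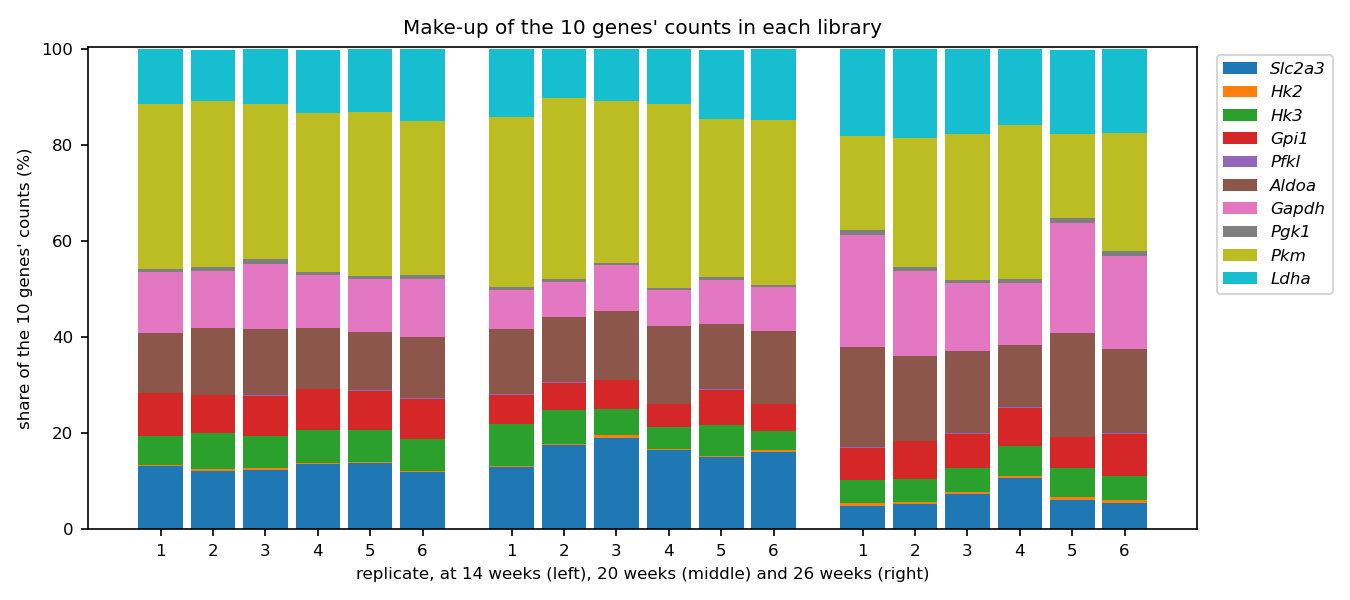
Share in percent of the summed counts of the 10 genes that each gene took (vertical axis, stacked from 0) in each of the 18 libraries, by replicate number within 14, 20 and 26 weeks. Slc2a3, at the foot of each bar, takes less at 26 weeks, where its mean share is 6.57%, and Gapdh takes more, with a mean of 18.4%.

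Levels of different genes were compared per kilobase of exon, with the exons of all annotated transcripts of a gene merged. This length, 4133 bases for Gapdh and 2911 for Aldoa, can exceed that of the mRNA. The order and ranks between genes therefore depend on the annotation. At 14 weeks Pkm was highest at 786 CPM per kb, followed by Aldoa at 526, Ldha at 440, Gapdh at 341, Hk3 at 214, Slc2a3 at 208, Gpi1 at 153, Pgk1 at 40.5, Hk2 at 5.51 and Pfkl at 1.57. Hk3 and Slc2a3 did not differ beyond their spread at that age. Among 9936 tested genes with a length, Pkm ranked 58, Aldoa 84 and Ldha 100 from the top at 14 weeks. At 20 weeks the order was the same at the top and bottom, with Slc2a3 at 194 CPM per kb ahead of Gapdh at 180, within their spread. At 26 weeks Aldoa at 591, Ldha at 513, Pkm at 493 and Gapdh at 428 came first, each within the spread of its neighbour, and Slc2a3 had dropped to 88.9, below Hk3 at 142 and Gpi1 at 113.

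The other genes of glucose transport and glycolysis gave no single direction. Of a list of 26, 15 were tested. From 14 to 20 weeks 2 rose and 3 fell, beside 4.93% of all genes higher and 5.27% lower. From 14 to 26 weeks 2 rose and 1 fell, beside 5.45% of all genes higher and 5.54% lower. From 20 to 26 weeks 4 rose and 3 fell, beside 8.03% of all genes higher and 7.98% lower. The median log2 fold changes were -0.48, -0.20 and 0.51, and those of all genes tested were -0.02, 0.04 and 0.05. The 4 that rose from 20 to 26 weeks were Tpi1, Pgam1, Bsg and Ldhc, and the 3 that fell were the transporter genes Slc2a1, Slc2a6 and Slc16a3.

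Regulators of glycolysis and of pyruvate entry were a list of 22, of which 14 were tested. From 14 to 20 weeks 2 rose and 1 fell, beside 4.93% of all genes higher and 5.27% lower. From 14 to 26 weeks 3 rose and 2 fell, beside 5.45% of all genes higher and 5.54% lower. From 20 to 26 weeks 3 rose and 3 fell, beside 8.03% of all genes higher and 7.98% lower. Hif1a, the oxygen-regulated subunit of HIF-1, was at 71.9 ± 12.7, 61.3 ± 21.9 and 30.1 ± 18.5 CPM and fell by 1.25 ± 0.33 from 14 to 26 weeks (edgeR, adjusted p = 0.0192). Pfkfb4, whose enzyme makes the phosphofructokinase activator fructose 2,6-bisphosphate, was at 382 ± 66.4, 482 ± 78.1 and 237 ± 88.8 CPM and fell by 1.02 ± 0.20 from 20 to 26 weeks (adjusted p = 0.00211). Both subunits of the mitochondrial pyruvate carrier were higher at 26 than at 14 weeks, with log2 fold changes of 0.97 ± 0.20 for Mpc1 (adjusted p = 0.00492) and 0.90 ± 0.26 for Mpc2 (adjusted p = 0.0305). Pdk3, a kinase that inhibits pyruvate dehydrogenase, fell by 1.28 ± 0.28 from 14 to 20 weeks (adjusted p = 0.00683) and rose by 0.93 ± 0.28 from 20 to 26 weeks (adjusted p = 0.03). Txnip, an inhibitor of glucose uptake, rose by 0.93 ± 0.26 from 14 to 20 weeks (adjusted p = 0.0269).

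The pentose phosphate pathway, which branches off before Gpi1 acts and supplies NADPH for the oxidative burst, had all 7 of its listed genes tested. From 14 to 20 weeks 4 fell and 0 rose, beside 5.27% of all genes lower and 4.93% higher, with a median log2 fold change of -0.60. From 20 to 26 weeks 3 rose and 0 fell, beside 8.03% of all genes higher and 7.98% lower, with a median of 0.79. Between 14 and 26 weeks 1 rose and 1 fell, beside 5.45% of all genes higher and 5.54% lower, with a median of 0.04. The gene that rose was Pgls, the lactonase of the second step, by 0.98 ± 0.24 (edgeR, adjusted p = 0.0118). G6pdx, the entry enzyme, was at 1650 ± 286, 799 ± 157 and 1080 ± 265 CPM and fell by 1.05 ± 0.17 from 14 to 20 weeks (edgeR, adjusted p = 0.000795), and it was still lower at 26 than at 14 weeks, by 0.61 ± 0.17 (adjusted p = 0.0235). Tkt, the transketolase that returns sugars to glycolysis, was at 1490 ± 186, 723 ± 229 and 1250 ± 181 CPM, fell by 1.05 ± 0.18 (adjusted p = 0.00112) and rose by 0.79 ± 0.18 (adjusted p = 0.00458).

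The genes whose pattern over the 18 libraries was most like the mean pattern of the 10 were named by the root mean square distance between standardised log2 CPM. They were Sqrdl at 0.291, Tkt at 0.335, Aldh2 at 0.35, Tinagl1 at 0.36 and Ltf at 0.368. Ltf is also 1 of the 10 neutrophil markers examined above. Of the 10 genes themselves Gpi1 was nearest to their mean, at 0.338, then Pgk1 at 0.435, and Slc2a3 was farthest, at 1.43. Each of the 10 is part of the mean it was compared with.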

How the data were processed

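RNA was sequenced from neutrophils sorted from the spleen, 1 library for each of 18 biological replicates, 6 per age, with groups and replicate numbers taken from the titles. The labels' protocols give an RNeasy Plus Micro kit and single-end Nextera XT libraries. The deposited table holds raw counts, whole numbers for each gene symbol. Build GRCm38.p4 and the tools HTSeq 0.6.1, STAR 2.4.2a, Trimmomatic 0.32, DESeq and DESeq2 1.12.3 are named in the submitters' processing notes, with no order or role. Not given in the sources used here are the annotation, the strand setting and how the authors treated reads with several matches. Reads carry no molecular identifiers, and library totals of 5546624 to 17256379 counts set the precision.

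The counts went into edgeR 4.0.16 under R 4.3.3 (robust quasi-likelihood fit of all 18 libraries, TMM factors, age the only term, low genes removed by filterByExpr), with Benjamini-Hochberg adjustment over 10104 genes and a threshold of 0.05. CPM use TMM-scaled totals, and the SE is the log2 fold change over the square root of F. The code was tested on simulated data. Ratios of 2 counts used a pseudocount of 0.5 and exact permutation tests over 6 against 6 libraries. Lengths and coordinates come from GENCODE M21 gene models on GRCm38, to which 16809 of 17941 symbols matched directly and 453 through a RefSeq synonym. Same-age libraries differed by more than counting error (chi-square per gene from 27.8 to 199). No batch is given in the labels.

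All 10 genes were described. From each further list up to 4 called genes per pair of ages were named by smallest p, with any isozymes of the 10, and the text gives a part of them. The 5 genes of most similar pattern leave out pseudogenes and genes named Gm or Rik. The 10 genes, the lists and the corrections for length and GC content were chosen with earlier results of these data known. Alternatives were other scaling factors or library totals alone, a ratio pseudocount of 5, DESeq2 1.42.0, limma-voom (limma 3.58.1), a block for the replicate number, fits of the 2 ages alone, no filter or at least 10 CPM in 6 libraries, genes of other cell types left out, loess corrections for gene length and for GC content, and each library left out. The alternatives for the test of any change, and leaving out together 20-week replicate 3 and 26-week replicate 5 (fewest genes detected and fewest counts), were chosen after seeing the data. Calls of single genes were followed through the alternatives for the 10 genes only, not for the genes of the further lists.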

Additional observations from a re-analysis of the deposited data

Results flagged for a closer look

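In 45 groups of 6 libraries, 7 had a highest or lowest library set apart by a gap that was large for the range of its group (Dixon's test at the 95% level), which chance gives in about 1 in 20 groups. Hk2 was highest in replicate 1 at 26 weeks, at 6.11 log2 CPM, with the next library at 5.63. Hk3 was highest in replicate 4 at 26 weeks, at 9.44 log2 CPM, with the next at 8.98. Gpi1 was highest in replicate 1 at 14 weeks, at 10.2 log2 CPM, with the next at 9.93. Pgk1 was highest in replicate 3 at 14 weeks, at 6.85 log2 CPM, with the next at 6.53. Pfkl was lowest in replicate 5 at 26 weeks, at 1.91 log2 CPM, with the next at 3.71, and the log2 ratio of Pfkl to Pfkp was also lowest there, at -4.27 against -2.7. That library had the fewest counts of the 18. The summed level of the 10 genes was highest in replicate 1 at 14 weeks, at 13355 CPM, with the next at 11757.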

How the results depend on the processing

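Of the 13 calls between 2 ages, those of Slc2a3, Pgk1 and Pkm and the rise of Gapdh from 20 to 26 weeks held under all 13 alternatives and on leaving out each of the 18 libraries. Calls of the 10 genes numbered 3, 3 and 7 for 20 against 14, 26 against 14 and 26 against 20 weeks. For 20 against 14 weeks they were 6 with DESeq2, which called 1563 genes against 1030, 5 with only the 2 ages, and 1 with the length and 1 with the GC correction. For 26 against 14 weeks limma-voom called 6, and 2633 genes against 1111; the 2 ages alone gave 1710 genes and the length correction 554. For 26 against 20 weeks library totals alone, the length and the GC correction gave 4 each, with 1797, 2073 and 2133 genes against 1617. For any change with age limma-voom called 4005 genes against 2321 and the length correction 5 of the 10. The cause was not tested.

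Calls were split nearly evenly between higher and lower in the main results (48.3% higher for 20 against 14 weeks, 49.6% for 26 against 14 and 50.2% for 26 against 20). The share higher was 67.5 and 31.4% for 20 against 14 and 26 against 20 weeks with library totals alone, 76.8, 26.5 and 18% for the 3 pairs with the length correction, and 76.9, 32.1 and 19.7% with the GC correction. The median of all genes was 0.14 and -0.16 with library totals alone for those 2 pairs.

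Changes that no fit called turned sign in some settings. Slc2a3 for 20 against 14 weeks was 0.0597 with library totals alone, 0.36 with the length and 0.25 with the GC correction, and Hk2 was 0.19 and 0.16 with these corrections. For 26 against 14 weeks Aldoa was -0.0524 with the length correction, and Pgk1 was -0.047 with library totals alone, -0.35 and -0.11 with the corrections and -0.0188 to 0.0942 on leaving out libraries. For 26 against 20 weeks Pfkl was -0.11, -0.22 and -0.20 in the same settings and -0.13 to 0.28 on leaving out libraries, and Hk3 was 0.0019 without a filter, 0.0133 with the stricter filter, 0.0132 with the replicate block and -0.15 to 0.14 on leaving out libraries.

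Leaving out 1 library gave 702 to 1263, 652 to 1544 and 1141 to 1911 genes for the 3 pairs and 1780 to 2682 for any change, with 3 to 5, 2 to 4, 6 to 7 and 7 to 9 of the 10 genes. For 26 against 14 weeks the counts were 652, 733 and 726 without 26-week replicates 1, 2 and 6, and for 20 against 14 weeks 5 of the 10 were called without 20-week replicate 1 or 26-week replicate 4. Calls gained on leaving out 1 library were, for 20 against 14 weeks, Hk3 (those 2 libraries), Aldoa (26-week replicate 4) and Ldha (14-week replicate 2, 20-week replicate 1 or 5), for 26 against 14 weeks Gpi1 (20-week replicate 4 or 5, 26-week replicate 4), and for 26 against 20 weeks Pkm (26-week replicate 4). The difference in mean log2 ratio then ran from -1.86 to -1.34 (20 against 14 weeks), -1.73 to -1.20 (26 against 14) and -0.10 to 0.25 (26 against 20) for Slc2a3 to Slc2a1, from 0.66 to 1.07 for Hk2 to Hk3 (26 against 20), from 0.86 to 1.37 for Pfkl to Pfkp (26 against 14), and from -0.58 to -0.29 and 0.51 to 0.79 for Gapdh to Actb (20 against 14 and 26 against 20), with calls in 5, 2, 0, 1, 1, 1 and 1 of 12 cases. The sample descriptions carry other numbers than the titles, and pairing by those was not tested. By the replicate numbers of the titles no pairing was clear. A correlation of deviations over 0.1 was found in 1 of 18 pairs of libraries with the same number. Of the 18 libraries, 6 were closest to their own number. With the number as a block the fits called 962, 946 and 1573 genes and 3, 2 and 6 of the 10, losing Hk3 for 26 against 14 weeks (adjusted p = 0.0574) and Gpi1 for 26 against 20 weeks (adjusted p = 0.0636). Without the 2 doubted libraries they called 3, 2 and 7 of the 10.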

Other observations

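Glycogen is the neutrophil's own store of glucose, and 12 of 14 listed genes of its making and breakdown were tested. From 14 to 20 weeks 3 fell and 0 rose, with a median log2 fold change of -0.65, beside 5.27% of all genes lower. From 14 to 26 weeks 2 fell and 0 rose, beside 5.54% of all genes lower, and from 20 to 26 weeks 1 rose and 0 fell, beside 8.03% of all genes higher. Pygl, the phosphorylase that releases glucose 1-phosphate, was at 2910 ± 190, 1800 ± 147 and 1520 ± 389 CPM (SD, n = 6) and fell by 0.69 ± 0.13 from 14 to 20 weeks (edgeR, adjusted p = 0.00268) and by 0.93 ± 0.14 from 14 to 26 weeks (adjusted p = 0.000983). Gyg, the glycogenin that primes the polymer, was at 189 ± 36.8, 78.5 ± 26.8 and 246 ± 60.2 CPM, fell by 1.27 ± 0.22 from 14 to 20 weeks (adjusted p = 0.00126) and rose by 1.65 ± 0.22 from 20 to 26 weeks (adjusted p = 0.000163).

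Targets of HIF-1 outside glycolysis were a list of 16. Of 13 tested, 1 rose from 14 to 20 weeks and 1 fell from 20 to 26 weeks, in both cases Bnip3, a mitophagy receptor, where 4.93% of all genes rose and 7.98% fell. From 14 to 26 weeks 1 of the 13 fell, Mxi1, a relative of the Myc antagonist Mad, by 0.41 ± 0.12 (edgeR, adjusted p = 0.035), where 5.54% of all genes fell. These counts are near the shares over all genes. Bnip3 was at 20.8 ± 10.6, 59.2 ± 17.5 and 22.7 ± 7.44 CPM, with log2 fold changes of 1.51 ± 0.34 (edgeR, adjusted p = 0.00704) and -1.38 ± 0.34 (adjusted p = 0.00848). The median of the 13 was 0.25 and -0.39 from 14 to 20 and from 20 to 26 weeks.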
